A study of Mus musculus with 6 samples.

Results

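The interleukin-1 (IL-1) family genes described here are 10 genes picked by symbol. They are the agonist ligands Il1a, Il1b, Il18 and Il33, the antagonist Il1rn, the receptors Il1r1, Il1rl1, Il1rap and Il1r2, and Nlrp3. Nlrp3 encodes a sensor that starts the processing of IL-1 beta and IL-18. All 10 were found among the 43432 genes of the deposited count tables, and all 10 passed the filter on low counts. The counts come from RNA sequencing of mouse samples with the tissue label skeletal muscle, 3 libraries labelled FID and 3 labelled control. Every title also carries the tag D3, and the labels spell out neither abbreviation. The series is about a mouse model that lacks Igf1 in FAPs (fibro-adipogenic progenitors), stromal cells that reside between myofibres, and asks whether these cells depend on their own IGF-I. Per the labels, which are the same for both groups, mice were given tamoxifen on 5 consecutive days from 12 to 13 weeks of age at 100 ug per g of body weight, and at least 1 week passed before the experiments. The labels also describe muscles frozen in embedding medium and RNA from primary FAPs, and they name no Cre driver, injury, sex or animal for a library. P-values therefore measure only how far these libraries spread, which may be technical.

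Gene counts per library summed to between 5201853 (control 1) and 10093757 (control 3). Igf1, the gene the model deletes, stood at 109, 107 and 81.6 CPM (read counts scaled to library size with TMM factors) in FID 1, 2 and 3 and at 134, 60.4 and 106 CPM in control 1, 2 and 3, so it does not check the labels, and FID and control below mean the libraries so labelled. The 7 myofibre markers summed to 14.6 to 25.1 CPM in FID and to 52.2, 5.37 and 14.4 CPM in control 1, 2 and 3, although the label is skeletal muscle. Acta1, skeletal actin, was the highest of them, with up to 30.9 CPM in control 1, and Ckm, the creatine kinase of myofibres, reached at most 1.19 CPM. Pdgfra, which marks FAPs, stood at 457 to 606 CPM in FID and 565 to 871 CPM in control. Adgre1, which encodes the macrophage surface protein F4/80, stood at 379 to 436 CPM in FID and 171 to 318 CPM in control. The neutrophil genes S100a8 and S100a9 reached at most 13.2 and 8.89 CPM. In bulk RNA, more cells of a type and more RNA per cell cannot be told apart.

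IL-1 family cytokines are alarm signals of damaged and infected tissue. IL-1 alpha and IL-1 beta bind the receptor IL-1R1, which pairs with the accessory chain IL-1RAP to recruit MyD88 and activate NF-kB, while the receptor antagonist occupies the same receptor without signalling and the decoy IL-1R2 binds ligand without a signalling tail. IL-1 beta and IL-18 are made as precursors that caspase-1 cleaves inside inflammasomes such as the one built by NLRP3. IL-33 is a nuclear protein of stromal cells that is released on damage and binds ST2, the product of Il1rl1, and in mouse muscle FAPs are a known source of it.

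The upstream sequences of the 4 agonist genes are printed because Il1b and Il18 were the members whose groups separated, and Il1a and Il33 are their counterparts that did not. Each run holds the 250 bases before a RefSeq start in GRCm38.p6, 5′ to 3′ on the gene's strand, and for Il33 the window of the more upstream of its 2 starts. Capitals mark matches on either strand to the TATA box (TATAAA), AP-1 (TGANTCA), the PU.1 core (GAGGAA), the ISRE core (GAAA, any 2 bases, GAAA) or the NF-kB consensus.
Il1b, chr2:129371140-129371389, minus strand: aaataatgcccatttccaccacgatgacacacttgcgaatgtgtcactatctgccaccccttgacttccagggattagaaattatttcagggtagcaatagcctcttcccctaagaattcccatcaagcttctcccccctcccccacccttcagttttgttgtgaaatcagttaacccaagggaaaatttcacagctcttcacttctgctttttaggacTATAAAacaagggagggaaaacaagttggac
Il1a, chr2:129309973-129310222, minus strand: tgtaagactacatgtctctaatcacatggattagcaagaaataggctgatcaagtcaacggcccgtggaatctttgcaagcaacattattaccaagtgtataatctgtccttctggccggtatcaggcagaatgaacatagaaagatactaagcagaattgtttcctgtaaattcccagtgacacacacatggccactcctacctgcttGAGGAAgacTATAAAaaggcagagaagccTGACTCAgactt
Il18, chr9:50554450-50554699, plus strand: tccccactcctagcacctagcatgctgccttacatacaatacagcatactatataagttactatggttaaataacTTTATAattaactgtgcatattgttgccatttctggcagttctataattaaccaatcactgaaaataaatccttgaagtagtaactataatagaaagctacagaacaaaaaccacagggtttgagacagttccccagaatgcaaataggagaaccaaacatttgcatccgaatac
Il33, chr19:29924863-29925112, plus strand: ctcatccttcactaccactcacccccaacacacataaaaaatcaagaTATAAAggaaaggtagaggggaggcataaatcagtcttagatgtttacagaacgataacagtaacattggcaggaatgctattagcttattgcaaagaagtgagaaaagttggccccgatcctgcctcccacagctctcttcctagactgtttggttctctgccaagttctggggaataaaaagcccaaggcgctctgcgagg
Il1b and Il1a each had a TATAAA close to the start, at bases 31 to 26 and 32 to 27 before it. Il1a also had GAGGAA at bases 41 to 36 and TGACTCA at bases 12 to 6. Il18 had a single match, TATAAA on the opposite strand at bases 175 to 170, and a GC content of 35.6% against a median of 52.4% over all windows. The printed Il33 window had TATAAA at bases 203 to 198, and the window of the other Il33 start had it at bases 29 to 24, as close as in Il1b and Il1a. Over all 32851 mouse windows of this length, 12.4% held TATAAA, 6.75% TGANTCA, 23.3% GAGGAA, 2.98% the ISRE core and 3.9% the NF-kB consensus. None of the 16 windows of the 10 members held the ISRE core. A match is a description of letters and not a measured binding site.

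Il1r1 and Il33 were the most abundant members and Il1a the scarcest. Levels between genes were compared as CPM per kilobase of annotated exon, over 6 libraries. Il1r1 had a median of 56.8 CPM per kilobase with a range of 39.0 to 71.7, and Il33 one of 55.8 with a range of 42.4 to 71.2, so these neighbours did not differ beyond their spread. Il1b followed with a median of 30.6 CPM per kilobase (range 16.5 to 35.5), below Il33 in 6 of 6 libraries with no overlap of the ranges. Nlrp3, Il1rn, Il18 and Il1rl1 had medians of 13.2, 10.9, 8.55 and 7.55 CPM per kilobase, and each neighbour in this order overlapped the next. Il1r2 and Il1rap had 3.63 and 2.24 CPM per kilobase, and Il1a 0.972. Exon lengths include all annotated transcripts, from 1.031 kb for Il18 to 11.36 kb for Il1rap, so a gene that uses a short transcript is placed too low.

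**Figure D1:**
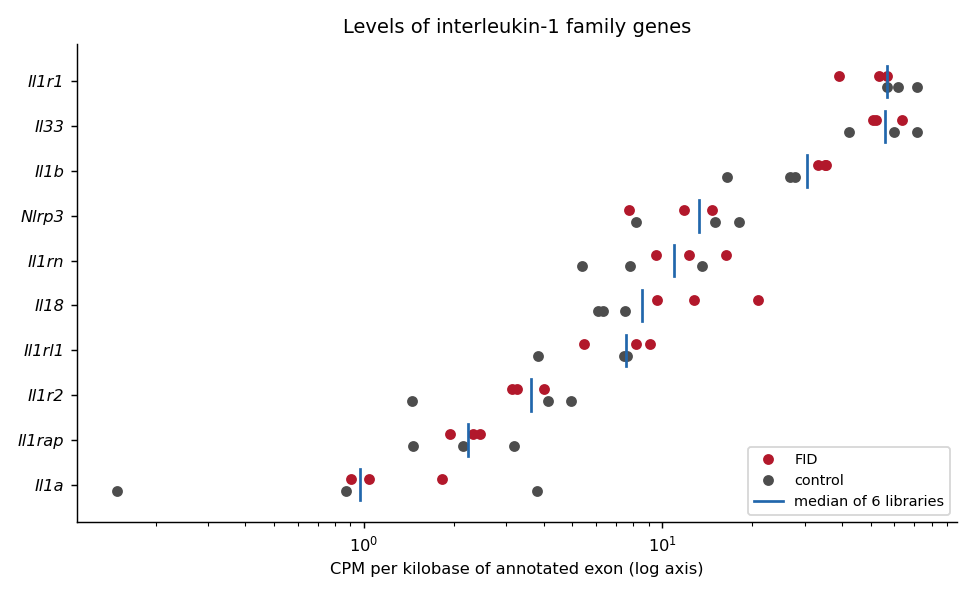
CPM per kilobase of annotated exon (log axis) of the 10 genes in each FID and control library, ordered by the median of 6 libraries. Il1r1 and Il33 lie together at the top with medians of 56.8 and 55.8, and Il1a lies lowest at 0.972 with the widest scatter.

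In the comparison of FID with control, none of the 10 members passed the quasi-likelihood test of edgeR at an adjusted p (Benjamini-Hochberg, over the 12881 genes tested) of 0.05. Of all genes tested 0 (0%) passed it, the lowest adjusted p being 0.109. An unadjusted edgeR p under 0.05 was reached by 2 members, Il18 and Il1b, both higher in FID, where 19% of all genes reached it in either direction and 9.81% with FID higher. The FID and control libraries did not overlap for the same 2 of 10 members (20.0%), against 25.3% of all genes tested (13% with FID higher), so the share among the members is near the background. DESeq2 called 1 member, Il18, where it called 6.3% of the genes with an adjusted p (3.89% with FID higher), and limma-voom called none of the 10 members and 0% of all genes. The members had a median log2 fold change of -0.04, and all genes tested one of -0.02. The plots of counts per library and of fold changes show the members one by one.

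Il18 (ENSMUSG00000039217, mm10 chromosome 9, 50554827 to 50581840, plus strand) encodes the cytokine that drives interferon gamma production by lymphocytes. It stood at 9.92, 21.5 and 13.2 CPM in FID 1, 2 and 3 and at 6.53, 6.28 and 7.71 CPM in control 1, 2 and 3. Every FID library lay above every control library, FID 2 highest and FID 1 closest to control. The means were 14.9 ± 5.99 CPM in FID and 6.84 ± 0.765 CPM in control (SD, n = 3 each), a log2 fold change of 1.12 (SE 0.30), or 2.17-fold with an unadjusted 95% interval of 1.33 to 3.54. The adjusted p was 0.148 in edgeR, 0.0337 in DESeq2 and 0.185 in limma-voom, and over all 11 alternatives it ranged from 0.0337 to 0.449. Without FID 2 the log2 fold change was 0.75 (edgeR adjusted p 0.449).

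Il1b (ENSMUSG00000027398, chromosome 2, 129364570 to 129371139, minus strand) encodes the secreted agonist IL-1 beta, made mainly by myeloid cells. It stood at 63.4, 67.1 and 67.6 CPM in FID 1, 2 and 3 and at 51.0, 53.2 and 31.4 CPM in control 1, 2 and 3. The FID libraries lay close together and above all control libraries, among which control 3 was lowest. Il1b averaged 66.1 ± 2.28 CPM in FID and 45.2 ± 12.0 CPM in control (SD, n = 3 each), a log2 fold change of 0.55 (SE 0.20), or 1.46-fold with an unadjusted 95% interval of 1.05 to 2.03. Its edgeR adjusted p was 0.214, and DESeq2 gave 0.167. Without control 3 the log2 fold change was 0.36, and the unadjusted edgeR p was 0.0673 without FID 2 and 0.0724 without FID 3. An antisense gene, Il1bos, overlaps exons of Il1b, and it held 0 to 4 counts per library against 258 to 639 for Il1b.

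Il1a (ENSMUSG00000027399, chromosome 2, 129299610 to 129309972, minus strand), the neighbour of Il1b, encodes IL-1 alpha, which acts as an alarm signal on release from damaged cells. It was near the limit of what this depth can show, with 32, 17 and 19 counts in FID 1, 2 and 3 and 38, 17 and 3 counts in control 1, 2 and 3. On the CPM scale this was 3.61, 1.78 and 2.05 in FID and 7.52, 1.72 and 0.293 in control. Control 1 was the highest and control 3 the lowest of the 6 libraries, with the FID libraries between them. The log2 fold change was -0.22 with an interval of -2.35 to 1.91 (edgeR adjusted p 0.921), and it was 1.29 without control 1 (edgeR adjusted p 0.341), so no direction can be given. A transcript on the opposite strand, Gm14023, overlaps exons of Il1a and held 0 to 4 counts. Of 4 skin keratin genes, Krt5, Krt14 and Krt1 had 15, 14 and 1 counts in control 1 and 0 in every other library. Krt10 was instead highest in control 3 (3.42 CPM, against 1.78 CPM in control 1). The part of skin cells in the Il1a counts of control 1 was not tested.

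Il33 (ENSMUSG00000024810, chromosome 19, 29925114 to 29960718, plus strand) was the most abundant of the ligands on either scale. It stood at 146, 150 and 184 CPM in FID 1, 2 and 3 and at 122, 205 and 172 CPM in control 1, 2 and 3. The FID libraries lay within the range of the control libraries. The means were 160 ± 20.7 CPM in FID and 167 ± 41.9 CPM in control, and the log2 fold change was -0.06 with an interval of -0.54 to 0.42 (edgeR adjusted p 0.904). A fall to below 0.688 of the control level or a rise above 1.34-fold lies outside that interval.

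Il1rn (ENSMUSG00000026981, chromosome 2, 24336853 to 24351494, plus strand) encodes the receptor antagonist, in secreted and intracellular forms that the gene count does not separate. It stood at 52.6, 90.2 and 68.3 CPM in FID 1, 2 and 3 and at 75.4, 43.2 and 29.9 CPM in control 1, 2 and 3. FID 2 was highest, and control 1 lay above FID 1 and FID 3. The means were 70.4 ± 18.9 CPM in FID and 49.5 ± 23.4 CPM in control, and edgeR gave a log2 fold change of 0.52 (SE 0.35, adjusted p 0.441). With 1 library left out it was 0.94 without control 1, 0.27 without control 3 and 0.30 without FID 2 (edgeR adjusted p 0.135, 0.642 and 0.777).

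The balance of antagonist to agonists did not separate the groups. The ratio of Il1rn to the sum of Il1a and Il1b in CPM, with 0.5 CPM added to each side, was 0.786, 1.31 and 0.980 in FID 1, 2 and 3 and 1.28, 0.788 and 0.942 in control 1, 2 and 3. Both groups thus spanned nearly the same range. On the log2 scale the means were 0.00 ± 0.37 in FID and -0.02 ± 0.36 in control (SD, n = 3 each), a difference of 0.03 (exact two-sided permutation p = 0.8, where 3 against 3 libraries cannot give less than 0.1).

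**Figure D2:**
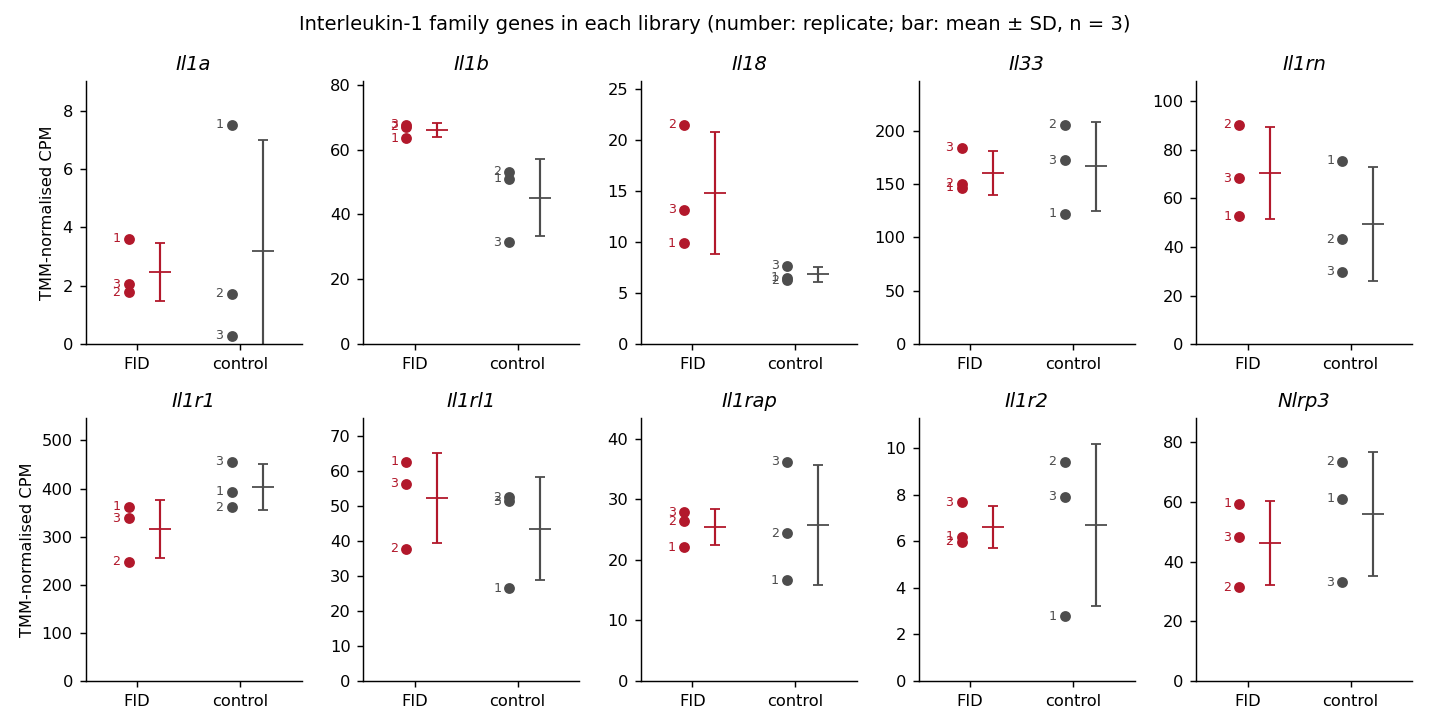
TMM-normalised CPM of each of the 10 genes in FID (red) and control (grey) libraries; points are libraries numbered by replicate, and bars are the mean ± SD (n = 3), cut at 0 for Il1a in control. The groups are apart only for Il1b (63.4 to 67.6 against 31.4 to 53.2 CPM) and Il18 (9.92 to 21.5 against 6.28 to 7.71 CPM).

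Il1r1 (ENSMUSG00000026072, chromosome 1, 40225080 to 40317257, plus strand) encodes the signalling receptor for IL-1 alpha and beta. It stood at 362, 248 and 339 CPM in FID 1, 2 and 3 and at 393, 361 and 456 CPM in control 1, 2 and 3. FID 2 was lowest and control 3 highest, and FID 1 overlapped control 2. Il1r1 averaged 316 ± 60.1 CPM in FID and 403 ± 48.5 CPM in control, and edgeR gave a log2 fold change of -0.35 (SE 0.18, adjusted p 0.327). The sign was below 0 in each of the 11 alternatives that refitted the counts, with values of -0.44 to -0.20.

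Il1rap (ENSMUSG00000022514, chromosome 16, 26581704 to 26730117, plus strand), whose product is the accessory chain shared by the IL-1, IL-33 and IL-36 receptors, measured 22.1, 26.4 and 27.9 CPM in FID 1, 2 and 3 and 16.6, 24.4 and 36.2 CPM in control 1, 2 and 3. The FID libraries lay inside the range of the control libraries. The log2 fold change was -0.03 with an interval of -0.66 to 0.61 (edgeR adjusted p 0.964).

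Il1rl1 (ENSMUSG00000026069, chromosome 1, 40429570 to 40465415, plus strand) encodes ST2, as a membrane receptor for IL-33 and as a soluble form that gene counts do not separate. It stood at 62.8, 37.8 and 56.4 CPM in FID 1, 2 and 3 and at 26.5, 52.6 and 51.5 CPM in control 1, 2 and 3. Control 1 was lowest and the other libraries of the groups overlapped, and edgeR gave a log2 fold change of 0.26 (SE 0.29, adjusted p 0.672), or 0.01 without control 1 (adjusted p 0.991). Some defining genes of cells known for ST2 were at or near 0. Cd3e, a T cell gene, had 0 counts in every library, which allows up to 0.593 CPM in control 1 and 0.293 CPM in control 3. Foxp3, the regulatory T cell factor, reached at most 0.105 CPM, Gata3, a factor of type 2 lymphoid cells, 1.38 CPM, and the mast cell protease gene Cpa3 3.36 CPM. The 12 T cell and type 2 lymphoid markers summed to 276 to 311 CPM in FID and 267 to 396 CPM in control, most of it from Thy1 (176 to 240 CPM in FID, 189 to 339 CPM in control), which other cells also carry. Il7r stood at 32.5 to 64.0 CPM in FID and 12.9 to 14.6 CPM in control and Rora at 21.9 to 26.5 CPM in FID and 34.2 to 49.4 CPM in control, both without overlap, and DESeq2 called Il7r higher and Rora lower where edgeR called neither. The 9 mast cell markers summed to 22.1 to 55.8 CPM in FID and 18.5 to 47.1 CPM in control, most of it from Hdc and Kit. Which cells carried Il1rl1 was not tested.

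Il1r2 (ENSMUSG00000026073, chromosome 1, 40074079 to 40125231, plus strand), the decoy receptor gene, was the member with the fewest counts after Il1a. It stood at 6.20, 5.98 and 7.67 CPM in FID 1, 2 and 3 and at 2.77, 9.43 and 7.91 CPM in control 1, 2 and 3. Control 1, the shallowest library, was lowest with 14 counts, and the FID libraries lay within the control range. The log2 fold change was -0.06 with an interval of -0.98 to 0.87 (edgeR adjusted p 0.953). Set against Il1r1, the log2 ratio of decoy to signalling receptor averaged -5.46 ± 0.26 in FID and -5.95 ± 0.88 in control (SD, n = 3 each). The difference of 0.49 did not pass the exact two-sided permutation test (p = 0.6), and it was 0.01 without control 1.

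Nlrp3 (ENSMUSG00000032691, chromosome 11, 59541568 to 59566956, plus strand), the inflammasome sensor gene, measured 59.4, 31.4 and 48.1 CPM in FID 1, 2 and 3 and 61.1, 73.5 and 33.0 CPM in control 1, 2 and 3. The groups overlapped, FID 2 being lowest and control 2 highest. In edgeR the log2 fold change was -0.27 (SE 0.33, adjusted p 0.694), and it was -0.01 without control 2, -0.05 without FID 2, -0.47 without FID 1 and -0.53 without control 3.

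**Figure D3:**
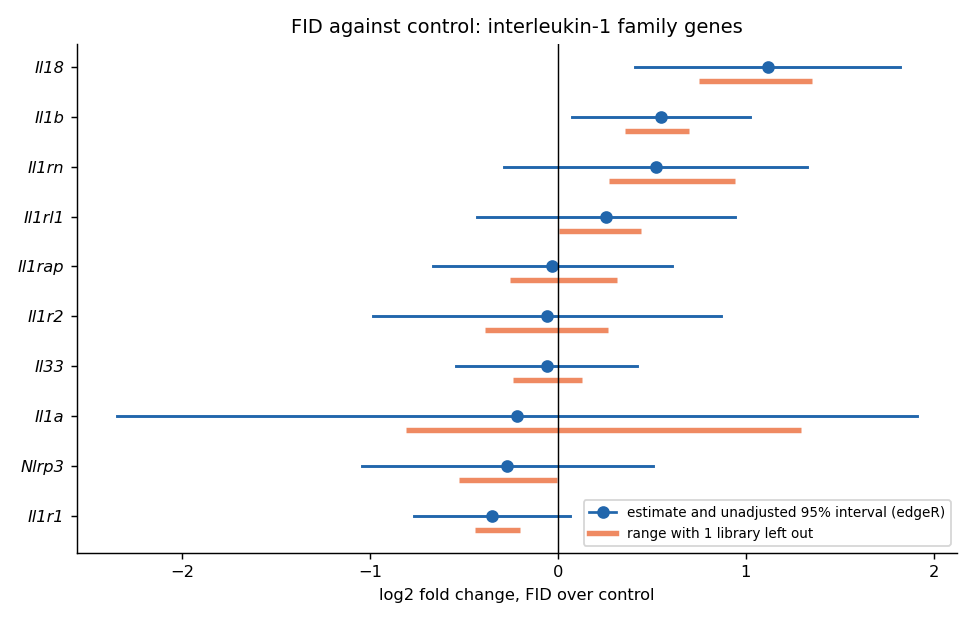
Log2 fold change of FID over control for each gene, with the unadjusted 95% interval from edgeR (blue) and the range when 1 library is left out (orange). Il18 and Il1b lie above 0 with their intervals, at 1.12 and 0.55, and the interval of Il1a spans -2.35 to 1.91.

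Macrophage and FAP markers differed in summed level between the same libraries, without overlap of the groups. The endothelial, monocyte, neutrophil and interferon response sums given below overlapped. No single marker passed edgeR's adjusted test. The 12 macrophage markers summed to 7519 to 10105 CPM in FID and 3492 to 5765 CPM in control, and 12 of 12 had a log2 fold change above 0 (median 0.74), from 0.05 for Cd14 to 2.48 for Fcgr1, with 6 of 12 free of overlap between the groups. Lyz2, a lysozyme gene, overlapped, at 4302, 2193 and 1720 CPM in FID 1, 2 and 3 and 1857, 2283 and 1429 CPM in control 1, 2 and 3. The 12 FAP markers summed to 31618 to 45853 CPM in FID and 60936 to 68941 CPM in control, with 11 of 12 below 0 (median -0.54), 6 of 12 free of overlap, and Dpp4 above 0 at 0.08. Most of these sums came from the collagen genes Col1a1, Col1a2 and Col3a1, each without overlap. Pdgfra, Cd34, Dcn, Lum, Pi16 and Dpp4 overlapped between the groups. The 8 endothelial markers summed to 1160 to 1916 CPM in FID and to 4196, 1789 and 1166 CPM in control 1, 2 and 3, and 8 of 8 lay below 0 (median -0.61), with control 1 far above the other libraries. The 6 monocyte markers summed to 843 to 2252 CPM in FID and 672 to 1054 CPM in control (median log2 fold change 1.49), and the 10 neutrophil markers to 95.7 to 121 CPM in FID and 62.9 to 101 CPM in control. The 10 interferon response genes summed to 728, 5660 and 3120 CPM in FID 1, 2 and 3 and to 855, 240 and 554 CPM in control 1, 2 and 3. Ranked by summed level, the FID libraries had the order of Il18 for these genes and the monocyte markers, but the control libraries did not. The mean log2(CPM + 1) of the monocyte markers was 6.55, 7.92 and 7.68 in FID 1, 2 and 3. In control 1, 2 and 3 it was 5.86, 5.56 and 6.37, so by this measure both groups had the order of Il18. The same mean over the other IL-1 family genes described below also had that order in both groups. The match is thus not particular to the monocyte markers, and it was not tested. The mean over the interferon response genes had the order in FID only. DESeq2 called 6 of 12 macrophage, 6 of 10 interferon response, 4 of 6 monocyte and 1 of 10 neutrophil genes higher. It called 5 of 12 FAP genes lower and 0 endothelial genes. Of all genes with an adjusted p it called 6.3% (3.89% with FID higher). The groups did not overlap for 25.3% of all genes tested (13% with FID higher). The part of any of these cell types in the values of Il18 and Il1b was not tested.

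Levels within a library were also written relative to its marker scores, as a description chosen after the values were seen. The macrophage score is the mean of log2(CPM + 1) over the 12 markers, Fcgr1 among them, and it was 8.74 to 9.12 in FID and 7.46 to 8.37 in control. Subtracting it therefore lowers every gene in FID relative to control by construction, and the result is no test of the cells behind a gene. On this scale Il18 averaged -4.98 in FID and -5.02 in control, Il1b -2.83 in FID and -2.49 in control, and Il1rn -2.78 in FID and -2.43 in control. Nlrp3 stood at -2.92, -4.10 and -3.12 in FID 1, 2 and 3 and -2.41, -1.91 and -2.37 in control 1, 2 and 3. The FAP score was 8.67 to 9.03 in FID and 9.32 to 9.51 in control, so its subtraction raises every gene in FID. Relative to it, Il33 averaged -1.53 in FID and -2.05 in control, and Il1r1 -0.57 in FID and -0.75 in control.

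**Figure D4:**
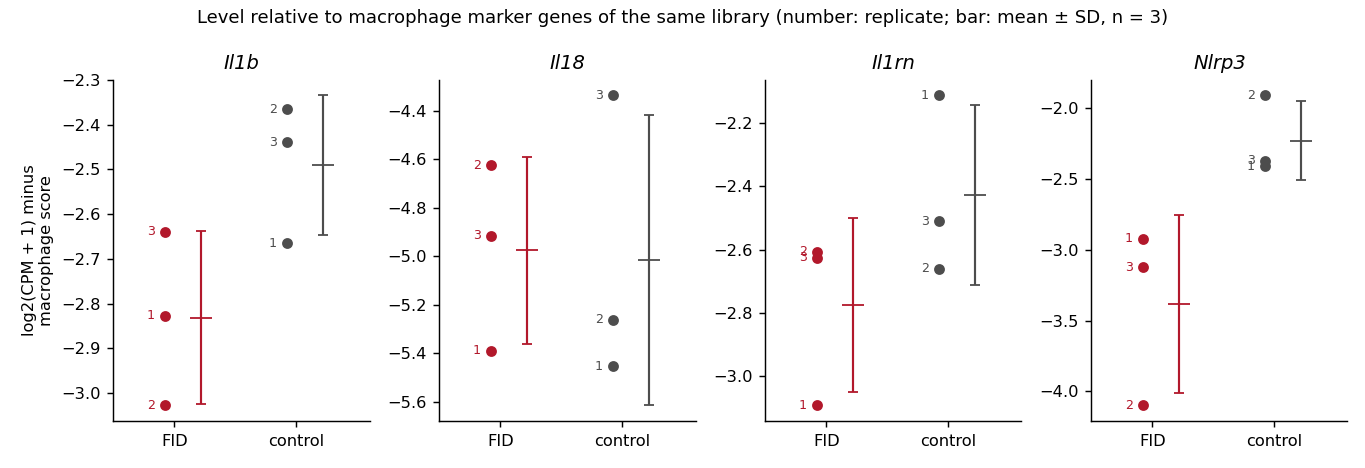
Level of 4 genes as log2(CPM + 1) minus the macrophage score of the same library, in FID (red) and control (grey); points are libraries numbered by replicate and bars the mean ± SD (n = 3), with an axis of its own for each gene that does not start at 0. The score itself is higher in FID (8.74 to 9.12 against 7.46 to 8.37), which lowers every gene there; the groups overlap for Il1b, Il18 and Il1rn, and all FID libraries lie below control for Nlrp3 (-4.10 to -2.92 against -2.41 to -1.91).

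The genes around the members were counted by 4 lists. Of the other IL-1 family ligands and receptors, 12 genes in all, only 4 had enough reads to be tested, 0 passed edgeR's test and the median log2 fold change was 0.09, against -0.02 for all genes tested. Il18bp, which encodes the soluble protein that captures IL-18, stood at 17.2, 94.1 and 42.8 CPM in FID 1, 2 and 3 and at 21.8, 8.41 and 9.47 CPM in control 1, 2 and 3. FID 2 and FID 3 were above every control library and FID 1 was not, and edgeR gave a log2 fold change of 2.00 (SE 0.63, adjusted p 0.179; DESeq2 adjusted p 0.0202). Sigirr, a receptor that dampens IL-1 signalling, measured 6.65, 5.46 and 5.94 CPM in FID 1, 2 and 3 and 10.9, 6.69 and 6.93 CPM in control 1, 2 and 3, without overlap (log2 fold change -0.42, edgeR adjusted p 0.395). Il1rl2, the IL-36 receptor gene, had 65.9 ± 7.59 CPM in FID and 59.8 ± 15.3 CPM in control, whereas the IL-36 ligand gene Il1f9 (Il36g) had at most 8 counts in any library and Il1f6, Il1f8, Il1f5 and Il1f10 had 0 in all. Il18r1, the ligand-binding chain of the IL-18 receptor, had at most 1 count in any library, and its partner Il18rap 1.57 to 2.82 CPM in FID and 1.19 to 2.53 CPM in control.

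Inflammasome genes other than Nlrp3 were higher on average in FID. Of 16 tested, 15 had a log2 fold change above 0, 0 passed edgeR's test, and the median was 0.71, where 6151 of all 12881 genes tested lay above 0. An unadjusted p under 0.05 with FID higher was reached by 9 of the 16, against 9.81% of all genes. DESeq2 called 5 of the 16, all higher, against 3.89% of all genes with an adjusted p. The median was 0.49 without FID 2. Naip2, a sensor of bacterial secretion systems, stood at 27.3, 42.3 and 36.4 CPM in FID 1, 2 and 3 and at 21.6, 14.3 and 12.2 CPM in control 1, 2 and 3 (log2 fold change 1.16, SE 0.26, edgeR adjusted p 0.136). Casp1, the protease that cleaves the IL-1 beta and IL-18 precursors, stood at 22.5, 55.1 and 38.8 CPM in FID 1, 2 and 3 and at 19.4, 11.4 and 14.6 CPM in control 1, 2 and 3 (log2 fold change 1.37, SE 0.34, edgeR adjusted p 0.139). As for Il18, FID 2 was the highest library and FID 1 the FID library closest to control. Naip5, a flagellin sensor and close relative of Naip2 whose reads may be shared with it, had 11.4 ± 1.44 CPM in FID and 5.58 ± 1.72 CPM in control (log2 fold change 1.04, edgeR adjusted p 0.141). The macrophage markers were also higher in summed level in these FID libraries. The interferon response genes had a median log2 fold change of 2.59, with 10 of 10 above 0, though their sums overlapped between the groups. The part of either list in these values was not tested.

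Genes of IL-1 receptor signalling lay near 0 on both sides. All 16 were tested, 0 passed, 10 lay above and 6 below 0, and the median log2 fold change was 0.13 with a range of -0.37 to 0.43; it was 0.06 without FID 3 and 0.07 without FID 2. Ikbkg, the NEMO subunit of the kinase complex that frees NF-kB, stood at 26.3, 31.0 and 30.0 CPM in FID 1, 2 and 3 and averaged 21.6 ± 1.23 CPM in control (log2 fold change 0.43, edgeR adjusted p 0.179). Nfkb1, which encodes the p50 subunit precursor, had 105 ± 6.42 CPM in FID and 136 ± 28.9 CPM in control, and Ikbkb, a catalytic subunit of the same complex, 41.2 ± 3.42 CPM in FID and 35.6 ± 2.57 CPM in control (edgeR adjusted p 0.286 and 0.399).

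Genes that IL-1 and NF-kB are known to induce were lower on average in FID. Of 21 tested, 17 had a log2 fold change below 0, where 6730 of all 12881 genes tested lay below 0. Of the 21, 0 passed edgeR's test and 0 were called by DESeq2, and the median was -0.42, or -0.12 without control 1. An unadjusted edgeR p under 0.05 with FID lower was reached by 3 of the 21, against 1186 of all 12881 genes tested. The groups did not overlap for 2 of the 21, both lower in FID, against 1582 of all 12881 with FID lower. The share without overlap is thus near the background. The 4 above 0 were Ccl2 (0.73), Tnf (0.38), Ccl7 (0.36) and Ptges (0.10). Cxcl1, a neutrophil chemokine, stood at 266, 126 and 118 CPM in FID 1, 2 and 3 and at 384, 270 and 365 CPM in control 1, 2 and 3, without overlap between the groups (log2 fold change -1.0, SE 0.33, edgeR adjusted p 0.185). Il6, the gene for interleukin-6, stood at 108, 91.7 and 43.5 CPM in FID 1, 2 and 3 and at 258, 96.9 and 196 CPM in control 1, 2 and 3 (log2 fold change -1.18, SE 0.43, edgeR adjusted p 0.207). FID 1 overlapped control 2 for Il6. Lcn2, an iron-withholding lipocalin, was scarce, at 1.35, 2.84 and 1.73 CPM in FID 1, 2 and 3 and 3.56, 4.16 and 8.30 CPM in control 1, 2 and 3 (log2 fold change -1.45, edgeR adjusted p 0.169). The score of the FAP markers was 8.67 to 9.03 in these FID libraries and 9.32 to 9.51 in control. The endothelial markers, highest in control 1, also lay lower in FID on average, and the part of either cell type in these values was not tested.

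**Figure D5:**
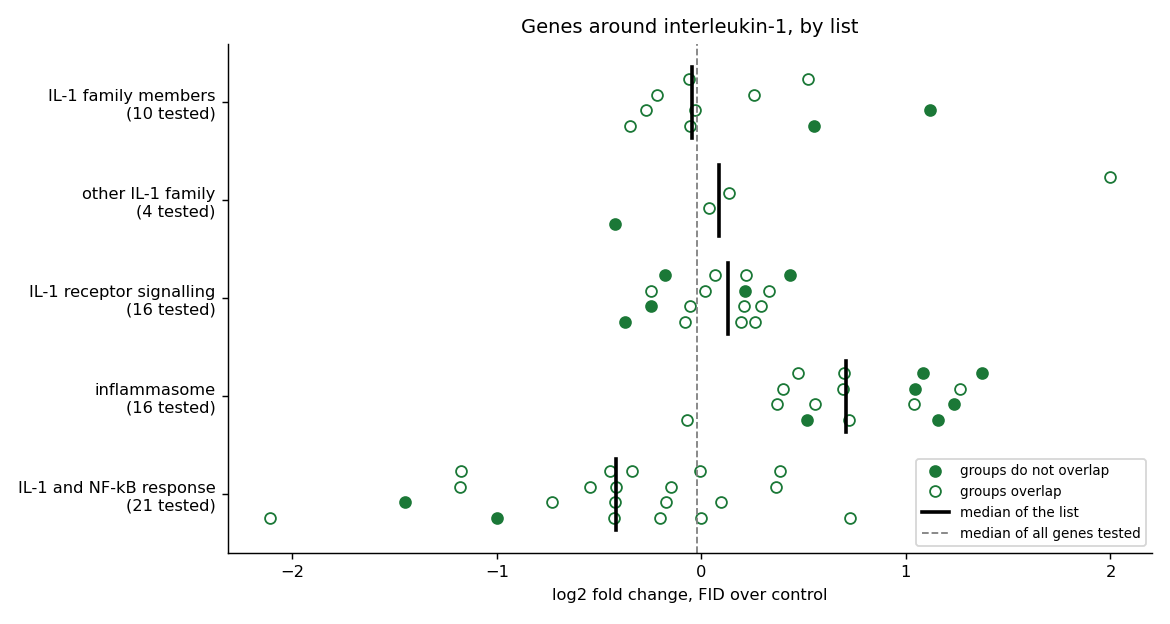
Log2 fold change of FID over control of each tested gene (circles, filled where the groups do not overlap) in the 10 members and 4 lists, with the list median (black) and the median of all genes tested (dashed). The inflammasome list lies to the right with a median of 0.71 and the response list to the left with one of -0.42, and the members centre near 0.

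The genes whose pattern over the 6 libraries was most like a member's were taken for the 3 members with the widest range. The measure was the root mean square difference of log2(CPM + 1) after centring each gene on its own mean, over 12880 other genes. For Il18, with a range of 1.63, these were Fgd4, a cytoskeletal exchange factor (0.09), Psme1, a proteasome activator subunit (0.12), and Npc2, a lysosomal cholesterol carrier (0.12). Psme1 stood at 133, 302 and 218 CPM in FID 1, 2 and 3 and at 117, 101 and 120 CPM in control 1, 2 and 3. For Il1rn, with a range of 1.56, they were Slc27a1, a fatty acid transporter (0.06), Gch1, the first enzyme of tetrahydrobiopterin synthesis (0.08), and Stx3, a syntaxin (0.09). For Il1a, with a range of 2.72, they were Cilp2, Synpo2l and Rbm24 (0.20, 0.23 and 0.24), each highest in control 1 and lowest in control 3. Rbm24 encodes an RNA-binding protein of muscle, and these 3 genes, like Il1a, had few reads.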

How the data were processed

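The authors deposited raw counts of reads per Ensembl gene. The submitters' processing notes name mm10 and, with no roles, Bowtie2 2.5.4, DESeq2, SAMtools, HTSeq, STAR and cutadapt. Per the labels' protocols, directional libraries used 1000 ng of RNA each (integrity number over 5.6). The counting's strand setting and the annotation are not given in the sources used. Reads counted to no single gene (9.60% to 10.9% of each file) were left out.

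Symbols were matched for 42462 of 43432 identifiers, and coordinates and exon lengths come from GENCODE M21 of the same assembly. Genes were filtered with filterByExpr (minimum count 10, total 15) in edgeR 4.0.16, scaled by TMM and tested with its two-sided quasi-likelihood test, group as the only term, Benjamini-Hochberg adjusted at 0.05. SE is the absolute log2 fold change over the root of the F statistic, and intervals are built on it. The procedure was tested on simulated counts that spread less between libraries than these data, whose common biological coefficient of variation was 23.14%. That test therefore does not measure the power of the comparison here. DESeq2 1.42.0 and limma 3.58.1 were alternatives, beside other scaling, no filter, a replicate block and each library left out. Libraries of a group differed beyond sampling noise (chi-square per degree of freedom 14.1 to 46.0). Floors of 3 counts cover counting error only. Upstream sequences are RefSeq's (GRCm38.p6), with all 10 members matched.

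The members and lists were chosen with earlier results of these data known. Named genes are the members, Igf1, cell markers, the 3 genes of smallest p in each list, and the 3 genes most like each of the 3 most variable members. Il18r1, Il18rap, Il36-type ligands, Foxp3, Gata3, Il7r, Rora, Thy1, Hdc, Kit, Acta1, Cd14, Fcgr1 and Dpp4 were named after their values were seen. So were Col1a1, Col1a2, Col3a1, Cd34, Dcn, Lum, Pi16, Krt5, Krt14, Krt10, Krt1, Ccl2, Tnf, Ccl7 and Ptges. Gbp5 of the inflammasome list is not analysed here.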

Additional observations from a re-analysis of the deposited data

How the results depend on the processing

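Whether replicate numbers pair the libraries cannot be told from 3 libraries per group. Deviations of same-numbered libraries correlated at 0.012, -0.295 and 0.32, and those of differently numbered libraries at -0.367 to 0.312. With the replicate block edgeR called 0 genes and 0 members, and Il1a, Il1rap and Il1r2 changed sign at 0.21, 0.036 and 0.061. edgeR called 0 genes without it, while 764 were called by DESeq2, 269 by edgeR with no filter on low counts, and 0 to 359 with 1 library left out, of which 3 without control 1 and 359 without FID 1. DESeq2 called 1 member (Il18, log2 fold change 1.12, adjusted p 0.0337), 1 gene of the other IL-1 family and 5 inflammasome genes, and with no filter edgeR called 2 inflammasome genes. With 1 library left out, edgeR called 0 members, 0 to 2 inflammasome genes and 0 to 3 response genes. The medians then ranged from -0.11 to 0.23 for the other IL-1 family, from 0.06 to 0.14 for receptor signalling, from 0.49 to 0.96 for the inflammasome and from -0.41 to -0.12 for the response genes. The log2 ratio of Il1rn to Il1a plus Il1b ranged from -0.17 to 0.22, below 0 without FID 2, control 2 (-0.13) or control 3 (-0.01), and that of Il1r2 to Il1r1 from 0.01 to 0.87. Il1a was 0.85 in limma-voom and -0.81 to 1.29 with 1 library left out. Il33 was -0.24 to 0.13 with 1 library left out, 0.13 without control 2 and 0.02 without FID 1, and Il1rap was -0.26 to 0.31, 0.31 without control 3 and 0.08 without FID 1. Il1r2 was -0.39 to 0.26, 0.26 and 0.08 without control 2 and 3 and 0.00 and 0.01 without FID 1 and 2. Relative to marker scores, an alternative added after the values were seen, Il1b, Il1rn, Il33 and Il1r1 took the other sign (-0.34, -0.35, 0.52 and 0.19), which follows from the scores' own differences between the groups. The sign held in every refit of the counts for Il1b, Il18, Il1rn and Il1rl1 (above 0) and for Il1r1 and Nlrp3 (below 0). Il1rl1 came as near 0 as 0.006 without control 1, and Nlrp3 as -0.006 without control 2. Why values moved was not tested. Il1a and Il1r2 had the widest intervals of the members, at -2.35 to 1.91 and -0.98 to 0.87. The size of difference that could be detected was not measured for any member.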
